A study of Schizosaccharomyces pombe with 4 samples.

Results

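At 213 protein-coding genes of fission yeast, the nascent transcription signal of an annotated noncoding unit on the opposite strand exceeded that of the gene itself. Each was found as a pair of a gene and an opposite-strand unit that share at least 50 nt, where the unit had the higher signal per nucleotide in both IP libraries and was above 0.003 of the deposited density in both, a level equal to 1.01 RPKM. Of 2705 such gene and unit pairs, 323 (11.9%) met this rule. They involve 213 of the 1855 genes that have an antisense unit (11.5%) and of 5129 genes in all (4.15%). The IP values chose these genes and units, so the order of the 2 strands in IP is given as a description, with no test.

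Nascent RNA was profiled by NET-seq, which reads out RNA that is still bound to transcribing RNA polymerase II (RNAPII). The 2 IP libraries were made from RNA that came down with FLAG-tagged RNAPII, and the 2 input libraries by the same protocol from total RNA of the same 2 biological samples. All 4 libraries came from strain YAM2492 (h- rpb3-flag::natMX6), which carries a FLAG tag on the RNAPII subunit Rpb3 and is otherwise wild-type, growing exponentially in rich YES medium. No mutant, treatment or other growth state was measured here, so the only groups compared are IP and input. With IP 1 set at 7100000 reads, the relative depths read from the table put IP 2 at 7117477 reads and the input libraries at 9082385 and 9823089 reads. A member gene had a median of 83 and 72 reads in IP but of 3 and 6 reads in input, and a member antisense unit had 144.5 and 138.5 reads in IP but 3 and 7 reads in input.

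Antisense transcription units lie on the strand opposite a gene and are mostly transcribed by RNAPII into long noncoding RNAs. Many of these RNAs are short-lived. The class called XUTs was defined by accumulation when the cytoplasmic 5'-3' exoribonuclease Exo2, the fission yeast Xrn1, is missing, so such units can be well transcribed and yet scarce in total RNA. Fission yeast growing in rich medium keeps genes for meiosis, mating and the use of other carbon sources at low expression, and Mei4 and Ste11, 2 transcription factors that act through the FLEX element and the TR box, turn on middle meiotic genes and early sexual differentiation genes.

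The sequences below show stretches before the RefSeq starts of 6 member genes from the meiotic and mating lists. These lists were used because the motifs searched are those of meiotic and mating transcription factors, and only genes with a match are shown. Each stretch is taken from the RefSeq genome ASM294v3 around its matches and ends before the gene start of RefSeq's own annotation. Gene starts in the deposited table can differ. The gene strand is written 5' to 3'. Capitals mark the FLEX core GTAAACA and the TR box TTCTTTGTT on either strand (TGTTTAC and AACAAAGAA on the other). The stretches are chrI:1083453-1083539 (minus strand) for meu31, chrII:3826947-3827126 (plus) for spo4, chrII:4274694-4274859 (minus) for meu7, chrII:1928553-1928674 (plus) for mcp4, chrII:700160-700248 (plus) for mfm3 and chrIII:1765863-1765954 (plus) for ste6. In ste6 the 2 motifs overlap.
meu31: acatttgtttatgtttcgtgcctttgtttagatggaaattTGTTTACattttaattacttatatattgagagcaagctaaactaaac
spo4: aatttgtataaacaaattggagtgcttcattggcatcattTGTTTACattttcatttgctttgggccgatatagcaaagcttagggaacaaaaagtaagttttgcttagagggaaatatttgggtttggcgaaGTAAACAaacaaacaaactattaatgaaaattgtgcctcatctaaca
meu7: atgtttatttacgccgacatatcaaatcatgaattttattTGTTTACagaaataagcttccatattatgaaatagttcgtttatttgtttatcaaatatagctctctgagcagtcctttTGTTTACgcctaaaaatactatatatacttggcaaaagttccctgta
mcp4: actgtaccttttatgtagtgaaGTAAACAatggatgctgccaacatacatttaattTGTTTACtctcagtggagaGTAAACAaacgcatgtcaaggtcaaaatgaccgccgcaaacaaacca
mfm3: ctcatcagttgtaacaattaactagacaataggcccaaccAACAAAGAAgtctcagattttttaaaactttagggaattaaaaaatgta
ste6: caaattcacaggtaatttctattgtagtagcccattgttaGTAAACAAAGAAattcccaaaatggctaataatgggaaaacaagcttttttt

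The window searched ran from 250 bases before to 50 bases after the RefSeq gene start, on both strands, and could be read for 212 member genes and 5106 genes in all. The FLEX core was present at 45 member genes (21.2%) and 841 of all genes (16.5%). It was present at 196 of 1248 genes (15.7%) with an active antisense unit that were not members, called sense-dominant below. Among the 30 members in the meiosis and sporulation list it was present at 17 (56.7%), beside 68 of the 158 meiotic genes that were not members (43.0%) and 28 of the 182 other members (15.4%). The TR box stood at 5 members (2.36%), shk2, zas1, mfm3, gnr1 and ste6, and at 102 of all genes (2.00%). It stood at 0 of the 30 meiotic members and at 4 of the 158 other meiotic genes (2.53%). The ATGACGT site of the stress factors Atf1 and Pcr1 stood at 3 members (1.42%) and at 79 of all genes (1.55%). RefSeq starts 39.2% of member genes but 7.21% of sense-dominant genes at the first coding base, so the windows of the groups do not cover like regions, and the part of this in the motif shares was not tested. A match describes the letters in this window and was not tested for function.

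A further set of sequences shows 2 antisense units of transcribed genes, which stand at the other extreme of the members. Capitals mark the bases that lie opposite the paired gene in RefSeq's annotation, and the unit strand is written 5' to 3'. SPNCRNA.1490 (chrII:2145545-2145829, minus strand) is paired with rrb1 and SPNCRNA.128 (first 183 of its 893 bases, chrIII:990652-990834, minus strand) with pre10, both in ASM294v3. RefSeq gives SPNCRNA.128 the name rrk1 and the product RNase P K-RNA, the RNA of the enzyme that trims the 5' ends of tRNA precursors. No base of SPNCRNA.1490 is in capitals, because RefSeq starts rrb1 at base 2146229 whereas the deposited table starts it at base 2145592.
SPNCRNA.1490: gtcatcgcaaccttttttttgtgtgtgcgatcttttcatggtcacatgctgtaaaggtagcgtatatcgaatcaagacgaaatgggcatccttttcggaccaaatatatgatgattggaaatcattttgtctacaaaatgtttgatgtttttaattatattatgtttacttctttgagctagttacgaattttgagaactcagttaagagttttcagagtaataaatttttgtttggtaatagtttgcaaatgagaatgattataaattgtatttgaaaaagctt
SPNCRNA.128: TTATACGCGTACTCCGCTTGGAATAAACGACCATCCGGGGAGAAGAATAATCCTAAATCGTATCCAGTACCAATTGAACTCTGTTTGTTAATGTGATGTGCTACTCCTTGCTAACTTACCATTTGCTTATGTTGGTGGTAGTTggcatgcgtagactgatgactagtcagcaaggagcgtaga

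The 323 pairs comprise 163 annotated ncRNAs, 125 XUTs and 35 nc-TUs, noncoding transcription units taken from a separate published annotation. As a share of all pairs of the class, 15.1% of 1081 ncRNA pairs, 9.87% of 1266 XUT pairs and 9.78% of 358 nc-TU pairs were members. The classes describe overlapping stretches: 88 member genes had both a XUT and an ncRNA or nc-TU as member units, 32 had XUTs only and 93 had ncRNAs or nc-TUs only. Merging units that share nucleotides on a strand reduced the 312 member units to 214 antisense loci. A single member unit was found at 118 genes and a pair of them at 84, while 11 genes had at least 3. The largest number was 5, at eta2, which codes for an RNA polymerase I termination factor of the Myb family.

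Over member pairs, the antisense unit ran between 1.14 and 5009 RPKM in IP 1 and between 1.29 and 6032 RPKM in IP 2, with medians of 15.3 and 12.9 RPKM. Member genes ran between 0 and 66.0 RPKM in IP 1 and between 0 and 61.4 RPKM in IP 2, with medians of 6.27 and 5.42 RPKM. They were not all silent, since 177 of the 213 were above 1 RPKM in both IP libraries and 63 were above 10 RPKM. For comparison, 1249 genes had an antisense unit above the same minimum in both IP libraries without meeting the rule, and are called sense-dominant here. Pairs that passed in 1 IP library alone, 57 in IP 1 and 36 in IP 2, are not member pairs. The group can therefore hold genes whose antisense unit was the higher in 1 library. Their own median was 24.4 and 22.3 RPKM in IP, and that of 3274 genes with no antisense unit was 28.8 and 27.2 RPKM.

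The size of the excess varied. Averaged over the IP libraries, the antisense unit had at least 2 times the signal of the gene in 216 of the 323 pairs. It had at least 4 times the signal in 117, at least 10 times in 71 and at least 50 times in 10. Just inside the ratio limit, SPNCRNA.1264 had 17.1 and 13.7 RPKM against 14.4 and 13.6 RPKM for pku70, a subunit of the Ku DNA end-binding complex. Just outside it, SPNCRNA.1077 had 16.0 and 19.3 RPKM against 16.0 and 14.6 RPKM for met8. The minimum density mattered to few pairs: SPNCRNA.1338, the lowest inside, had 1.14 and 1.36 RPKM at SPBC1773.12, and XUT1631, the closest outside, had 1.01 and 1.17 RPKM at SPAC869.09. Judged on IP 1 alone 380 pairs passed, and on IP 2 alone 359.

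**Figure D1:**
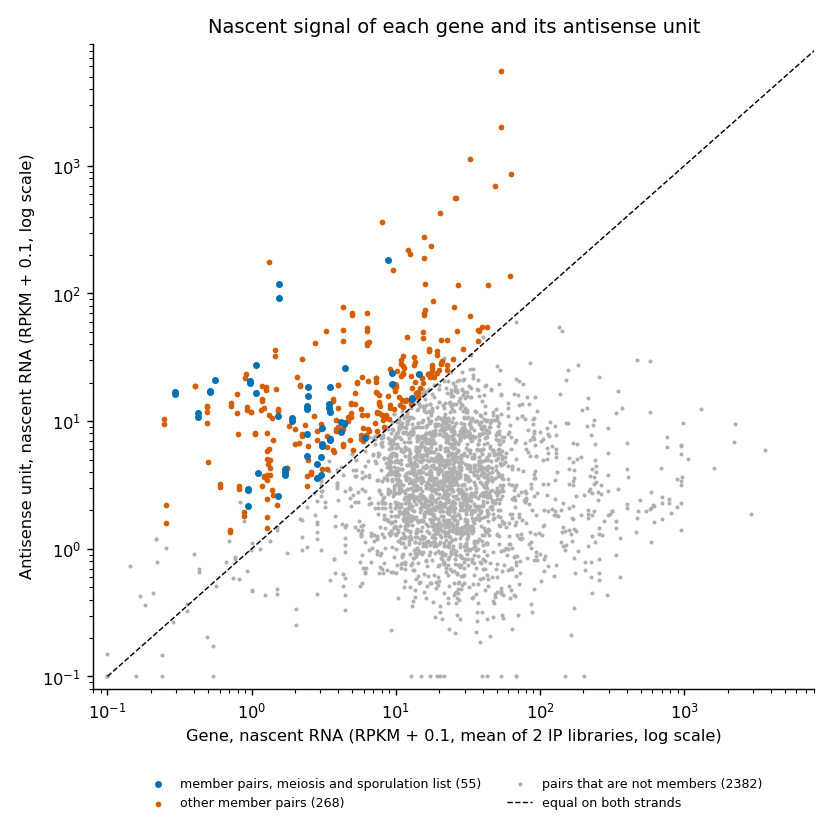
Nascent signal of the antisense unit (vertical, RPKM + 0.1) against that of its gene (horizontal, RPKM + 0.1), each the mean of 2 IP libraries on log axes, 1 point a pair. All 323 member pairs (blue for the meiosis and sporulation list, orange for the rest) lie above the dashed line of equal signal, which the rule fixed. In the single IP libraries their genes ran between 0 and 66.0 RPKM, and the points show the means.

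Genes of meiosis and sporulation were the largest of the listed groups. Of the 188 genes in that list 74 had an antisense unit and 30 of those (40.5%) were members, beside 213 of 1855 (11.5%) over all genes. All gene lists were chosen with earlier results of these data known, and the rule favours genes of low signal in IP. The shares by list are therefore a description, with no test. The meiosis list holds genes named for meiotic up-regulation (mug, meu, mcp, mde) and known meiotic and spore genes. The members include rec12, the Spo11 enzyme that makes meiotic DNA breaks, and rec7 and rec24, which act with it. They also include dmc1, the meiotic recombinase, hop1 of the chromosome axis, the spore-wall glucan synthase gene bgs2, and spo4, a sporulation kinase of the DDK family. Their antisense units ran between 3.16 and 196 RPKM in IP 1 (median 13.0) and between 2.49 and 173 RPKM in IP 2 (median 13.4). The genes themselves ran between 0 and 13.5 RPKM in IP 1 (median 2.44) and between 0.390 and 16.1 RPKM in IP 2 (median 2.59).

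The antisense units span most of these meiotic genes. Together the annotated units of a gene lay opposite a median of 94.8% of its length, 27 of the 30 genes were overlapped over more than 50% of their length, and 11 were overlapped in full. The annotated start was covered at 18 of the 30. In total RNA, which the rule did not use, the 30 genes had medians of 0.0778 and 0.128 RPKM. The 44 meiotic genes that had an antisense unit and were not members had 0.319 and 0.570 RPKM. Few reads lie behind these medians, and 3 of the 30 genes had no read in either input library. The rule favours genes of low signal in IP, so their total RNA is not independent of it. The 114 meiotic genes with no antisense unit had 0.236 and 0.411 RPKM in total RNA. In IP the meiotic genes that were not members had medians of 10.01 and 9.15 RPKM with an antisense unit and of 11.2 and 10.9 RPKM without one.

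Single loci show how far the strands differed. meu31 (I, bases 1081916 to 1083616, minus strand in ASM294v2) faced XUT1348, which had 96.7 and 138 RPKM in IP while the gene had 1.32 and 1.57 RPKM. In input XUT1348 had 3.14 and 1.61 RPKM and meu31 had 0.129 and 0.419 RPKM, so the antisense unit was the higher in all 4 libraries. XUT1348 was 73.0 and 88.2 times as high as the gene in IP, or 5.58 on the log2(RPKM + 1) scale. spo4 (II, bases 3827159 to 3828960) faced XUT0400, which covers it from end to end and had 17.0 and 16.4 RPKM in IP and 0.467 and 0.589 RPKM in input. The gene had 0 and 5 reads in IP (0 and 0.390 RPKM) and no read in either input library. Against a floor of 3 reads on the gene, XUT0400 was at least 72.5-fold higher in IP 1.

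Other genes of the group had a similar layout. meu7, an alpha-amylase gene, was covered in full by its units, and SPNCRNA.1685 had 29.4 and 25.3 RPKM in IP where meu7 had 1.21 and 0.725 RPKM. SPNCRNA.827 had 26.7 and 25.0 RPKM opposite meu26 with 4.99 and 3.62 RPKM, but that unit shares nucleotides with the translation factor gene tif212 on its own strand. meu18 belongs to this list and differs, since XUT0245 opposite it shares 98 nt with an arginine tRNA gene on its own strand. XUT0245 had 196 and 173 RPKM in IP and 555 and 859 RPKM in input. meu18 had 8.31 and 9.01 RPKM in IP and 1.12 and 1.44 RPKM in input. Without units that share nucleotides with a gene or structural RNA on their own strand, 26 of the 30 remained members. RefSeq's products also call members outside the list meiotic, such as rem1, a meiosis-specific cyclin, and fzr3, a coactivator of the anaphase-promoting complex in meiosis, which were noticed after their values were seen. The strongest units of rem1 and fzr3 share nucleotides with a gene on their own strand.

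Genes repressed by glucose made up another group, small but with a high share, which is likewise only a description. Of 14 genes in that list 10 had an antisense unit, and 7 of these (70.0%) were members: agl1, ght4, fbp1, gal1, ght6, inv1 and gut2. These code for enzymes and carriers used when glucose runs low, including fructose-1,6-bisphosphatase (fbp1) of gluconeogenesis and the secreted invertase (inv1) that splits sucrose. Their antisense units ran between 9.46 and 35.6 RPKM in IP 1 and between 5.76 and 36.0 RPKM in IP 2. The genes ran between 1.40 and 7.60 RPKM in IP 1 and between 1.33 and 7.61 RPKM in IP 2, with medians of 4.12 and 4.18 RPKM. The 3 other list genes with an antisense unit had medians of 15.6 and 12.1 RPKM. The 4 with no antisense unit had 1.68 and 2.50 RPKM, so low gene signal was also found without one annotated. In input the members had 0.121 and 0.266 RPKM, the 3 had 0.183 and 0.634 RPKM and the 4 had 0.0891 and 0.272 RPKM. The antisense excess in IP differed from gene to gene. With a threshold of 2 times in both IP libraries 4 of the 7 members were left.

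At ght6, a glucose and fructose symporter gene, XUT0023 covers the whole gene and had 35.6 and 36.0 RPKM in IP, against 1.40 and 1.33 RPKM for ght6. In input XUT0023 had 0.748 and 1.33 RPKM and ght6 had no read. XUT0109 had 24.0 and 20.0 RPKM in IP opposite inv1 with 1.93 and 2.03 RPKM, and in input XUT0109 was again the higher with 0.309 and 0.928 RPKM against 0.119 and 0.257 RPKM for inv1. The order turned round at gal1, the galactokinase gene and the only member among the loci that the study shows or assays by name. SPNCRNA.1697 had 9.46 and 5.76 RPKM and gal1 4.12 and 2.31 RPKM in IP, whereas in input SPNCRNA.1697 had 0 and 0.0888 RPKM (0 and 1 reads) and gal1 0.734 and 1.25 RPKM (13 and 24 reads). Both annotated antisense units of gal1, SPNCRNA.1697 and XUT0444, met the rule.

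Mating genes contributed 3 of 12 (25.0%), namely byr1, the MAP kinase kinase of pheromone signalling, mfm3, a precursor gene of M-factor pheromone, and ste6, an activator of Ras1. At ste6, covered in full, XUT0112 had 9.30 and 6.36 RPKM in IP against 2.49 and 1.79 RPKM for the gene. XUT0492 had 10.5 and 11.0 RPKM opposite byr1 with 8.40 and 8.31 RPKM, an excess of 1.25 and 1.32 times. XUT0218 had 9.71 and 8.91 RPKM opposite mfm3 with 2.40 and 3.43 RPKM. The mfm3 values rest on 7 and 10 reads of a 410-nt gene with similar copies and are uncertain under unique mapping. Among stress genes 1 of 6 was a member, cta3, a calcium pump gene, with 13.8 and 11.1 RPKM for XUT0213 and 1.30 and 1.56 RPKM for the gene. Iron uptake gave 1 of 6, sib2 of siderophore synthesis, where novelncTU_266 had 21.1 and 18.1 RPKM and the gene 10.5 and 9.19 RPKM. Nutrient transport gave 2 of 14, ght4 and ght6, and the phosphate list none of 2.

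The remaining lists are of housekeeping functions and hold from 0 to 3 members each, beside 11.5% over all genes. None of the 24 cytosolic ribosomal protein genes with an antisense unit was one, and 1 of 31 ribosome biogenesis genes was (dbp5). Splicing gave 2 of 30 (saf5 and cwf24), the cell division cycle 2 of 34 (mis19 and mis20, which act in loading centromeric histone) and DNA replication and repair 3 of 43. The last are rev1 and rev7, which act in translesion DNA synthesis, and ctp1, a cofactor of DNA end resection. SPNCRNA.1662 had 12.7 and 8.82 RPKM opposite rev1 with 3.19 and 2.03 RPKM. XUT0308 had 7.37 and 7.10 RPKM opposite rev7 with 6.90 and 5.02 RPKM, close to equality. In all, 163 of the 213 members are in none of the lists. Outside them, for example, SPBC28E12.02, an RNA-binding protein gene of the BICC1 family, was covered in full by XUT0283 with 20.2 and 17.3 RPKM and had itself 2 and 8 reads in IP (0.122 and 0.488 RPKM).

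**Figure D2:**
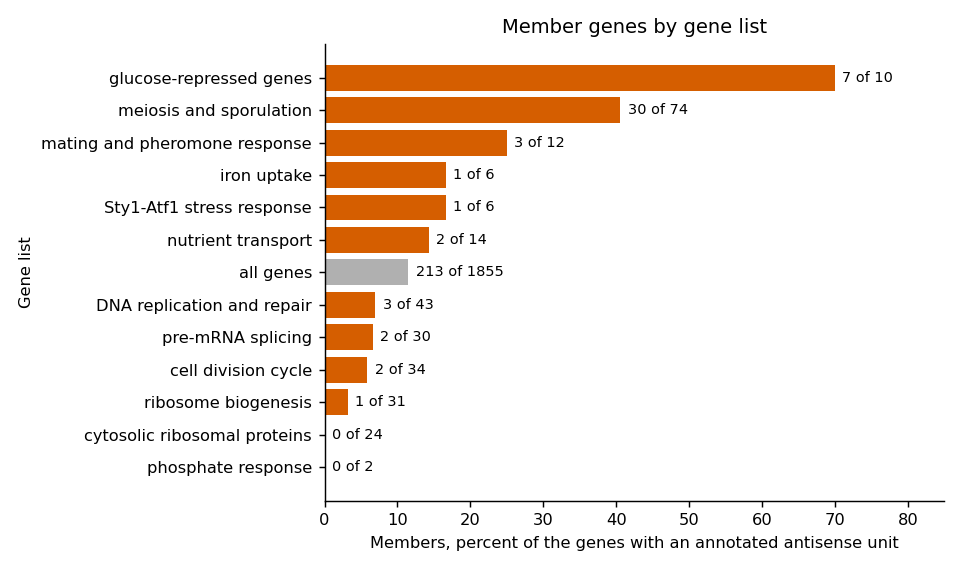
Percent of the genes with an annotated antisense unit that were members, for each gene list (bars, with counts), and for all genes in grey. Glucose-repressed genes (7 of 10) and meiosis and sporulation (30 of 74) lie above the 11.5% of all genes, while cytosolic ribosomal proteins (0 of 24) lie below it. The lists were chosen with earlier results of these data known, and the shares were not tested.

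The other extreme consists of well transcribed genes that overlap a unit of much higher signal. Each signal is a mean over the whole unit or gene, and the shared stretch is often a small part of the gene. It was 101 nt of the 2322-nt rrb1 and 208 nt of the 1433-nt pre10 in the deposited table. Whether the excess lies in the shared stretch was not tested. Apart from novelncTU_170 at dbp5, the units named for these loci were also high in input. How much of their IP signal is nascent RNA was not tested. At rrb1, a WD-repeat gene of ribosome biogenesis, the 101-nt unit SPNCRNA.514 had 5009 and 6032 RPKM in IP, the highest of any member unit, against 54.3 and 53.5 RPKM for the gene. In input SPNCRNA.514 had 1496 and 2354 RPKM and rrb1 had 2.23 and 6.23 RPKM. This unit and SPNCRNA.1490, which contains it, lie upstream of the rrb1 start that RefSeq gives. SPNCRNA.128, the RNase P RNA, had 896 and 840 RPKM opposite pre10, the gene of proteasome subunit alpha 7, with 66.0 and 59.3 RPKM. In input SPNCRNA.128 had 275 and 378 RPKM and pre10 had 2.92 and 4.62 RPKM.

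Further loci of this kind carry units whose function RefSeq does not give. The shared stretch was 163 of 4865 nt at ape2 and 256 of 945 nt at sdh8. At eaf1 it was 484 of 1948 nt and at SPAC4F10.16c 423 of 6150 nt. At ape2, an aminopeptidase gene, SPNCRNA.1511 had 697 and 701 RPKM in IP against 52.4 and 44.9 RPKM, and in input 365 and 654 RPKM against 3.37 and 6.95 RPKM. Opposite sdh8, SPNCRNA.1651 had 429 and 430 RPKM in IP, against 21.3 and 19.2 RPKM for the gene. SPNCRNA.1236 had 223 and 247 RPKM opposite the elongation factor gene eaf1 with 18.8 and 16.2 RPKM. SPNCRNA.1032 at SPAC4F10.16c, a P-type ATPase gene, had 267 and 288 RPKM against 15.8 and 15.1 RPKM, and RefSeq calls it possibly a small ncRNA. All 4 units were also high in input, SPNCRNA.1236 with 82.9 and 80.0 RPKM and the other 3 above 100 RPKM. By contrast novelncTU_170, a 209-nt unit within the RNA helicase gene dbp5, had 148 and 128 RPKM in IP and only 0 and 2 reads in input, beside 61.3 and 61.4 RPKM in IP and 3.59 and 7.78 RPKM in input for dbp5.

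Altogether 20 member units exceeded 10 RPKM in both input libraries, beside a median of 0.240 and 0.472 RPKM over all 312. Of these 20 units, 7 share nucleotides with a tRNA or snoRNA gene on their own strand, and 9 share nucleotides with neither a gene nor a structural RNA. XUT1390 at SPAC105.03c shares 75 nt with a tyrosine tRNA gene. XUT0681 at ppk3 shares 74 nt with a valine tRNA gene, and XUT0426 at rpn1301 shares 74 nt with an asparagine tRNA gene. XUT0426, which shares 59 nt with the 1835-nt rpn1301, had 553 and 562 RPKM in IP against 26.6 and 25.6 RPKM for the gene. In input it had 566 and 666 RPKM against 1.50 and 2.88 RPKM. How a read on such shared nucleotides was counted is not given in the sources used here and the part of the tRNA or snoRNA in the antisense excess was not tested.

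**Figure D3:**
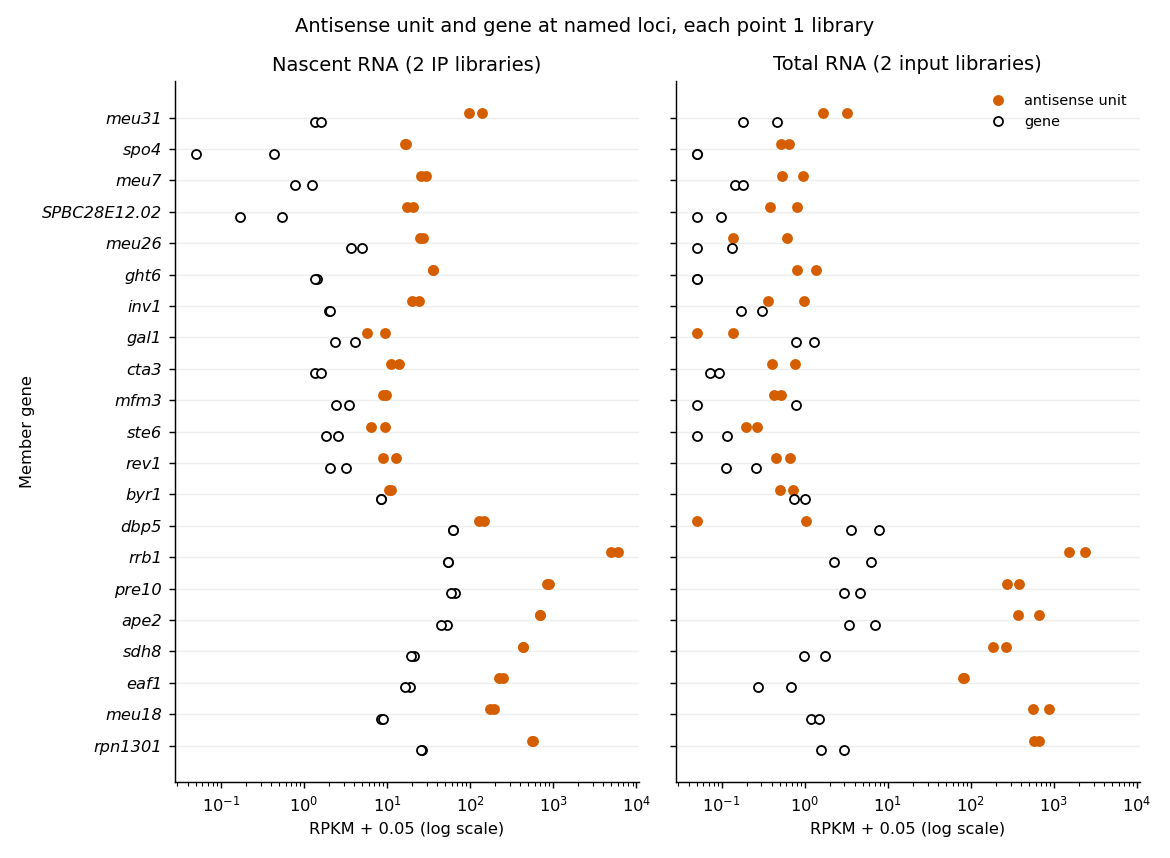
Signal of the antisense unit (filled) and of the gene (open) at named member loci, 1 point a library, in the 2 IP libraries (left) and the 2 input libraries (right), as RPKM + 0.05 on log axes. In IP the antisense points lie right of the gene points throughout, as the rule requires. In input they stay right at spo4, ght6 and rrb1 and lie left at gal1 and dbp5.

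Shared annotation touched many pairs but not most. Of the 312 member units, 63 share nucleotides with a gene or structural RNA on their own strand (19.5% of member pairs, beside 11.7% of the other pairs), 7 of them with a structural RNA and 56 with a protein-coding gene alone. Without these units 162 genes and 260 pairs remained, so 51 genes rest on such units alone. Among them is ctp1, opposite SPNCRNA.1189 with 221 and 189 RPKM, a unit that shares nucleotides with cox5. On the other side, 29 member genes share nucleotides with another gene or structural RNA on their own strand. Leaving out every gene that shares nucleotides with any unit of its own strand, noncoding units included, left 153 genes and 223 pairs. RefSeq describes 25 of the 145 ncRNA units matched by locus tag as possible alternative UTRs. wtf11, wtf21, eno102, pdc202 and the hsp3101, hsp3102 and hsp3105 genes belong to families of similar copies and their values are uncertain.

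Since the pairs depend on annotated ends, they were also looked up in RefSeq's own annotation, by locus tag on both sides. Of the 151 ncRNA member pairs found there, 144 (95.4%) still shared at least 50 nt, beside 614 of 688 other active ncRNA pairs (89.2%). The 7 that did not include those of rrb1 and SPAC4F10.16c. Over all RefSeq genes, 11.7% start at the first coding base, beside 39.2% of members.

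The antisense units covered more of the member genes than of the sense-dominant genes. Taking all units of a gene together, member genes had a median of 77.2% of their length opposite an antisense unit (quartiles 36.7% and 96.8%), against 37.0% in sense-dominant genes (19.0% and 73.2%). More than 50% of the length was covered in 148 members (69.5%) against 490 sense-dominant genes (39.2%), and the whole gene in 44 (20.7%) against 102 (8.17%). With only the strongest unit of each gene, the medians were 60.5% in members and 28.1% in sense-dominant genes. Gene length was similar, with medians of 1910 nt in members and 2041 nt in sense-dominant genes, but the antisense units were longer, with medians of 1345 nt for member units and 775.5 nt for the other active units.

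Which end was covered also differed. The annotated 3' end lay opposite an antisense unit in 101 members (47.4%) against 345 sense-dominant genes (27.6%), and both ends in 50 (23.5%) against 123 (9.85%). The annotated start was covered in 105 members (49.3%, 95% Wilson interval 42.7 to 56.0%) against 548 sense-dominant genes (43.9%, 41.1 to 46.6%), intervals that overlap. These intervals treat genes as independent draws and carry no test. The antisense unit started inside the gene in 58.2% of member pairs against 76.8% of other active pairs, and within 300 nt of the start of another gene on the strand of the paired gene, a divergent layout, in 22.3% against 17.8%.

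**Figure D4:**
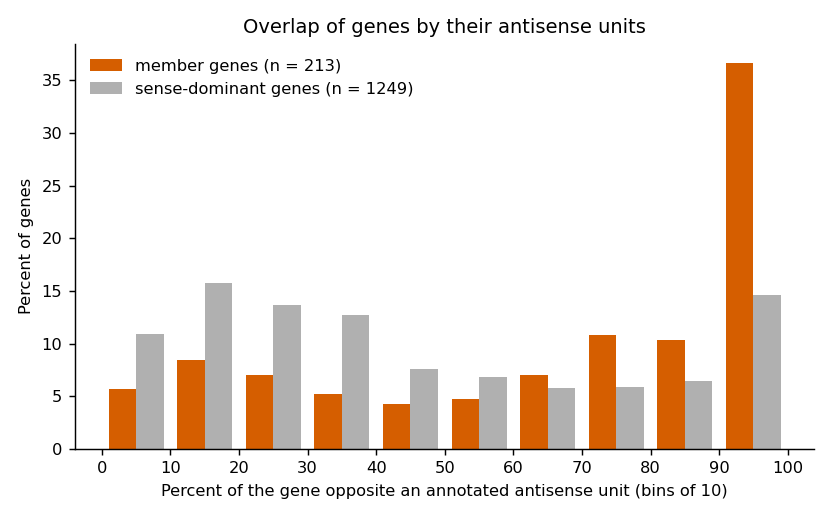
Percent of genes (vertical) in bins of 10 by the share of the gene opposite an annotated antisense unit (horizontal), for 213 member genes in orange and 1249 sense-dominant genes in grey. The members pile up in the last bin, and their median is 77.2% against 37.0%.

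The rule did not use total RNA, which gives the order of the strands among the RNAs present in the cells. Member pairs and other active pairs were, however, split by the strand order in IP of the same biological samples. Their difference in total RNA is therefore not independent of the rule and is given as a description. Over the 323 member pairs, the antisense unit had the higher signal in both input libraries in 175 (54.2%) and the gene in both in 80 (24.8%), with 68 mixed or equal. Over the 1789 other active pairs, the antisense unit was the higher in both in 47 (2.63%) and the gene in 1617 (90.4%). The background over all 2112 active pairs was 10.5%. Depth limits this comparison, since 46 member genes had no read in input 1 and 24 had none in input 2. Of the 133 member pairs with at least 10 reads in each input library, the antisense unit was the higher in both in 79 (59.4%) and the gene in 40 (30.1%). For the 1325 other active pairs at this depth, the counts were 17 (1.28%) and 1269. These reads are summed over gene and unit, so a pair can pass on its unit alone. Without units sharing nucleotides with a same-strand gene or structural RNA, the antisense unit was higher in both in 136 of 260 member pairs (52.3%). The gene was higher in both in 68 (26.2%). With at least 10 reads as well, these were 54 (54.5%) and 35 (35.4%) of 99 pairs. With 2 input libraries no exact test over samples can reach the threshold, the smallest p for 2 against 2 being 0.333.

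**Figure D5:**
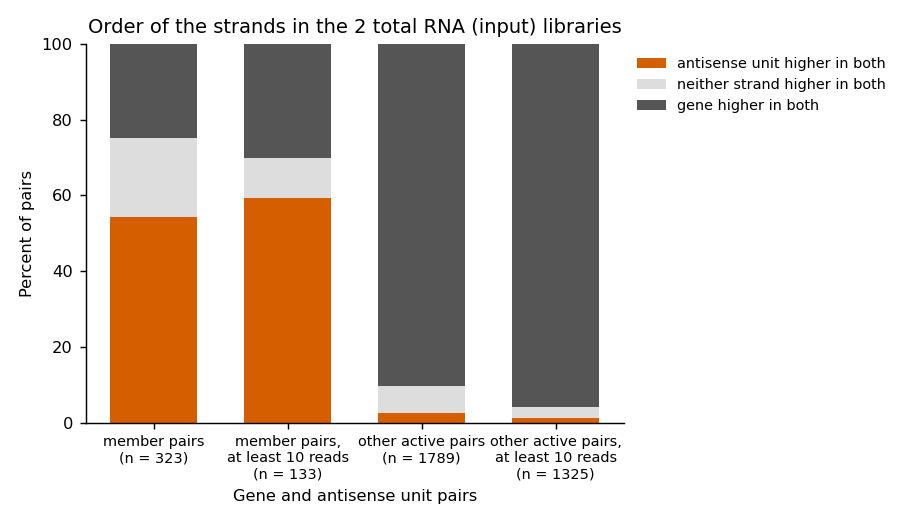
Percent of pairs by which strand had the higher signal in both input libraries, for member pairs and other active pairs, each also with at least 10 reads in every input library. The antisense unit is the higher in 54.2% and 59.4% of member pairs and in 2.63% and 1.28% of the others.

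Among the listed groups, judged by their strongest unit, 17 of the 30 meiotic members and 4 of the 7 glucose-repressed members had the antisense unit higher in both input libraries. Member genes as a whole had medians of 0.163 and 0.311 RPKM in input, against 0.902 and 1.73 RPKM in sense-dominant genes. That split was made on the IP values of the same samples. At most 3 reads were counted in 52.1% and 42.3% of members in the 2 input libraries, against 8.09% and 3.68% of sense-dominant genes, so many members were at or under the limit of detection in total RNA at this depth. Fewer transcribing cells and less RNA per cell cannot be told apart in such bulk libraries.

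IP and input were also compared directly by limma on log2(RPKM + 1), with Benjamini-Hochberg adjustment over 8912 units. On the deposited scale 207 of 213 member genes and 299 of 312 member units were higher in IP and 0 and 2 lower. The background over all units was 92.8% higher and 0.920% lower, and over protein-coding genes 98.3% higher and 0.0789% lower. The median difference was 2.38 for member genes and 3.26 for member units, beside a shift of 3.28 for all protein-coding genes. tRNA units took 5.59% and 5.79% of reads in IP and 94.5% and 89.9% in input. Centred on the median of protein-coding genes, 2 member genes were higher and 158 lower and 65 member units higher and 121 lower, where the background was 9.11% higher and 54.6% lower. By edgeR with TMM on the recovered reads, 23 member genes were higher and 11 lower and 128 member units higher and 29 lower, with a background of 14.7% higher and 14.7% lower. By quantile normalization 3 member genes were higher and 18 lower and 68 member units higher and 23 lower, with a background of 10.3% higher and 7.89% lower. By DESeq2 8 member genes were higher and 10 lower and 85 member units higher and 29 lower, with a background of 7.93% higher and 12.7% lower. Over protein-coding genes alone, 12.4% were higher and 35.2% lower when centred, and 17.4% and 19.4% by edgeR. By quantile normalization 10.9% of them were higher and 8.52% lower, and by DESeq2 9.16% and 15.8%. The rule selected on the IP values, so nothing is read from these counts about the members.

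Members lay on all 3 nuclear chromosomes, with 96 genes (45.1%) on chromosome I, 71 (33.3%) on II and 46 (21.6%) on III, beside 46.9%, 36.7% and 16.3% of sense-dominant genes. Only 3 members (1.41%) lay within 100 kb of an end of chromosome I or II, beside 5 sense-dominant genes (0.400%). An intron was annotated in 41.8% of members and 45.6% of sense-dominant genes, and a UTR in the deposited table in 90.1% of members and 96.4% of sense-dominant genes.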

How the data were processed

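Per the labels and the study's methods, 50-nt reads were mapped with Bowtie to ASM294v2, allowing 2 mismatches, and the authors deposited 1 table with a density, a signal per nucleotide of each annotated feature, for each of the 4 libraries. How reads touching several features were counted is not given in the sources used here. The deposited signal came out as whole reads for 100% of values (tolerance 0.01 read) up to 1 factor a library, and it was put on an RPKM scale by setting IP 1 to 7100000 reads, the smallest library total the study states, so RPKM levels rest on that anchor and ratios do not. Of 19343 rows, 10204 CDS rows repeat genes and 28 repeated pseudogene rows were dropped, leaving 9111 units. No per-sample column was left out (0).

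Member genes and gene lists were chosen with earlier results of these data known. Named genes are the members among the loci the study shows, the 8 with the largest mean difference of log2(RPKM + 1) between antisense unit and gene, the 8 with the highest antisense IP signal (both over units that share no nucleotide with a gene or structural RNA), the 6 with the highest own IP signal, the 6 with the highest antisense input signal, up to 4 of each gene list by antisense IP signal, and the 5 pairs nearest each limit of the rule. Promoters and units were read from RefSeq ASM294v3 by locus tag, with 5107 genes and 212 of 213 members matched, and no coordinate was converted. Python 3.11.15 with numpy 2.4.6, pandas 2.3.3, scipy 1.17.1 and matplotlib 3.10.9 was used.

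IP and input were compared by limma 3.58.1 in R 4.3.3 on log2(RPKM + 1), with an adjusted p threshold of 0.05. Alternatives were edgeR 4.0.16 and DESeq2 1.42.0 on the recovered reads, other scalings, overlaps and thresholds, each replicate left out, and a replicate block. The fits were tested on simulated data. IP and input of the same number come from the same biological sample, which is where the pairing comes from, although the deviations of same-numbered libraries correlated at 0.0593 over all 8912 units tested, 0.163 over protein-coding genes and 0.00550 over member genes. The p-values measure the spread between 2 libraries a group. Wilson intervals (95%) and floors of 3 reads cover counting error only.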

Additional observations from a re-analysis of the deposited data

How the results depend on the processing

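Member counts depended on the thresholds. Requiring an overlap of 50% of the gene left 130 genes and 192 pairs, and requiring 2 times the gene's signal left 122 genes and 182 pairs. XUTs alone gave 120 genes and 125 pairs, and annotated ncRNAs and nc-TUs alone 198 pairs. A minimum overlap of 1, 100 or 200 nt gave between 196 and 220 genes, and other density minimums between 199 and 220. Judged without 1 IP replicate, the members were between 235 and 252 genes and between 359 and 380 pairs. Without 1 input replicate, the share of member pairs with the antisense unit higher in total RNA was between 63.2% and 65.9%, because 1 library in place of 2 had to show the order. The share of members overlapped over more than 50% was 55.4% with the strongest unit alone. At 2 times the gene's signal, an alternative added after seeing the data, 4 glucose-repressed genes were left. The search of RefSeq's annotation for the overlaps was also added after seeing the data.

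The direction of IP against input depended on the scaling. The members were selected on IP values, so the calls are given only as a description. Centred on protein-coding genes, 2 member genes and 65 member units were higher in IP and 158 and 121 lower. The background was 9.11% higher and 54.6% lower over all units, and 12.4% and 35.2% over protein-coding genes. By quantile normalization 3 member genes and 68 member units were higher and 18 and 23 lower, beside 10.3% higher and 7.89% lower over all units. By edgeR with TMM 23 and 128 were higher and 11 and 29 lower, beside 14.7% higher and 14.7% lower over all units. By DESeq2 8 and 85 were higher and 10 and 29 lower, beside 7.93% higher and 12.7% lower. The median difference of member genes was -1.13 when centred and -0.19 by quantile normalization, and that of member units -0.25 when centred. The cause was not tested. Leaving out 1 library in turn gave between 180 and 205 member genes and between 283 and 303 member units higher, and between 0 and 1 member genes and between 0 and 5 member units lower, in fits where the lone library of a group is assumed to vary like the other group. With the replicate block, 208 member genes and 295 member units were higher and 0 and 1 lower, and the pairing moved no other count of calls by over 1.5 times. Total RNA values rest on a median of 3 and 6 reads a member gene.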
